A study of Mus musculus with 88 samples.

Results

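The subcortical maternal complex is a large protein assembly that lies under the surface of the mouse oocyte. Khdc3, Ooep, Nlrp5, Tle6 and Padi6, the 5 genes described here, code for parts of it or, in the case of Padi6, for an enzyme of the related cytoplasmic lattices. They were chosen by gene name in the deposited expression table, with their pattern in these libraries already known, and make up 5 of its 21942 loci. Each name stood at 1 locus. Khdc3 (also Filia) and Ooep (also Floped) carry atypical KH domains, a fold related to RNA-binding domains. Nlrp5 (also Mater) is an NLR-family protein, Tle6 belongs to the Groucho family of transcriptional co-repressors, and Padi6 is a member of the peptidylarginine deiminase family. In oocytes and early embryos the complex is known for its maternal effect: for several components, though not all, embryos of mothers that lack the component stop at early cleavage. Khdc3 is also known in embryonic stem cells (ESCs), where it takes part in the DNA damage response.

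The levels come from 26 RNA-seq libraries, 23 of ESCs and 3 of mouse embryonic fibroblasts (MEFs). The values are RPKM, read numbers scaled to transcript length and library size, so that levels of different genes can be set side by side. For 16 ESC libraries the parents were 129X1/SvJ and C57BL6 (called the B6 cross), and these covered 4 media, each with 2 XX and 2 XY lines. Medium 2i blocks the kinases MEK and GSK3, t2i is 2i with the MEK inhibitor at a titrated dose, a2i replaces the MEK inhibitor by one of Src, and serum medium was used with LIF. For the other cross, MSM, the parents were 129X1/SvJ and MSM/Ms, and its ESC libraries were 2i XX lines 15 and 2, 2i XY lines 20 and 23, 1 XX line (8) and 1 XY line (12) in serum, called S here as in the labels, and XX line 15 moved from 2i to serum (2i-S). The MSM cross also gave 2 MEF libraries and 1 MEF library from 2i line 15 (2i-MEF). ESC lines were at passage 3, except that the 2i-S culture was grown for 14 further passages, so for it medium and passage cannot be told apart. Line 15 supplied 3 of the libraries. The lines of a group were separate derivations per their names, and apart from line 15 nothing in the labels says that lines in different media share an origin.

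ESC identity was plain in the marker levels. The summed RPKM of 7 ESC markers was 2061 to 3716 in the ESC libraries and 28.4 to 125 in the MEFs. Fibroblast RNA was present in the B6 serum libraries: the median of 15 fibroblast markers stood at 7.84 to 14.7% of the MEF level there, against at most 0.0211% in the other B6 media. In the MSM cross it stood at 0.0239 to 0.515% in the 2i lines, at 0.475 to 1.63% in the S lines and 1.44% in 2i-S. Primitive endoderm markers were also higher in the B6 serum libraries, with a sum over 6 genes of 17.8 to 86.4 RPKM. The sum was 1.49 to 3.30 RPKM in the other B6 media and 85.7 to 152 RPKM in the MEFs. The 86.4 RPKM was that of 1 serum library, XY line 10. It held 16.3 RPKM of Gata4, against 1.99 to 2.84 RPKM in the other serum lines. No test is given for these markers. Within the B6 cross Gata6, Sox17, Pdgfra and Dab2 reached 1 RPKM in serum libraries only, so they entered the fit through serum alone. The XY lines in t2i held less Y-linked RNA than the other B6 XY lines, with a sum over 4 Y-linked genes of 9.70 to 19.8 RPKM against 32.7 to 47.8 RPKM. The serum XX lines held 2.65 to 3.45 RPKM of it, against 0.0510 to 0.124 RPKM in the other B6 XX lines. The part of any of these in the results below was not tested, beyond alternatives that subtracted the estimated fibroblast share. Values without these media are given where they bear on a call. In such bulk libraries fewer cells that express a gene and less RNA per cell cannot be told apart.

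The windows upstream of the start sites of Khdc3, Ooep and Tle6, the 3 members expressed in every ESC library, differ in their content of CG, the dinucleotide at which mammalian DNA is methylated. The 250 bases before each start are shown 5′ to 3′ on the gene's strand, from RefSeq (GRCm38.p6), with every CG in capitals. All 5 members had a window in RefSeq, and Tle6 and Nlrp5 had 2 each, of which the upstream one of Tle6 is shown. They are Khdc3 at chr9:73102148-73102397 on the plus strand, Ooep at chr9:78378589-78378838 on the minus strand and Tle6 at chr10:81600901-81601150 on the minus strand.
Khdc3: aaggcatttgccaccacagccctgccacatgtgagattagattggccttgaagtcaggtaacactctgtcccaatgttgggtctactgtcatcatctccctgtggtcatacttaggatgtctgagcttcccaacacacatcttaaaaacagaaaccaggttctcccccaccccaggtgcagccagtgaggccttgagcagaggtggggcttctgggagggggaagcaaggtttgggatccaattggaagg
Ooep: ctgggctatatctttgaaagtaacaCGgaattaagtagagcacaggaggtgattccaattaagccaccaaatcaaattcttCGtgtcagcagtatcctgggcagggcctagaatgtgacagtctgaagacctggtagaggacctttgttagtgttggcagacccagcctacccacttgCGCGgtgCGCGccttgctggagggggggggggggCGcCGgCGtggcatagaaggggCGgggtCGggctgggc
Tle6: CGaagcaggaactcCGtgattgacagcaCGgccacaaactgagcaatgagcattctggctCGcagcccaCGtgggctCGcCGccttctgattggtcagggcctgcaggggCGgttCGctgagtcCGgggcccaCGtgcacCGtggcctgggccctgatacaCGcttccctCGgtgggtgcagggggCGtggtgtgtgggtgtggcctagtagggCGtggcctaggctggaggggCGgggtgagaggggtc
The Khdc3 window holds 0 CG, as do 7.87% of the 32851 windows of this length in the RefSeq table, and lies inside the locus as the expression table bounds it. Ooep holds 11, and 35.6% of windows hold at least that many. Tle6 holds 17, a count reached by 23.5% of windows. Its other window holds 1 CG, the Padi6 window holds 1, and the Nlrp5 windows hold 1 and 7. The E-box CACGTG, which reads the same on both strands, occurs 2 times in the Tle6 window (where its middle shows as capitals) and in no other member's window. At least 1 occurs in 6.02% of all windows and at least 2 in 0.429%. The wider E-box CANNTG, which includes CACGTG and is the class of motif that the oocyte factor Figla binds, occurs 5 times in the Khdc3 window, a count that 1.15% of windows reach, and 1 time in the Ooep window. A match of letters is a description of the window and not a site of binding.

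The members fell into 3 levels in ESCs. Ooep was highest, with a median of 103 RPKM and a range of 27.4 to 243 RPKM over the 23 ESC libraries. Khdc3 ranged from 4.91 to 62.7 RPKM with a median of 34.4 RPKM, and Tle6 from 2.92 to 24.7 RPKM with a median of 12.7 RPKM. Padi6 reached 1 RPKM in 2 of the 23 ESC libraries only. Nlrp5 stayed below 1 RPKM in all 23, with a highest value of 0.141 RPKM and 7 libraries listed at 0, and is reported as not expressed. The ESC libraries thus held RNA of 3 of the 5 members throughout, without that of Nlrp5, which binds Ooep and Tle6 in the oocyte. In the 3 MEF libraries Khdc3 and Nlrp5 were listed at 0 and Ooep did not pass 0.0319 RPKM, whereas Tle6 stood at 5.50 to 8.82 RPKM, within its ESC range.

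Khdc3 lies on chromosome 9 (mm10 chr9:73101835-73104438, ENSMUSG00000092622.8). Its sex difference had one direction in B6 2i and the other direction in the remaining media. In 2i the XX lines held 8.85 and 6.02 RPKM and the XY lines 35.1 and 33.2 RPKM. In t2i the XX lines held 42.6 and 33.7 RPKM and the XY lines 4.91 and 6.95 RPKM. The lower sex was thus XX in 2i and XY in t2i, and the XX and XY lines did not overlap in either medium.
In a2i the XX lines reached 62.7 and 59.9 RPKM, the highest group of the study, and the XY lines 25.1 and 27.6 RPKM. In serum the XX lines held 60.5 (line 17) and 34.4 RPKM (line 46) and the XY lines 16.1 and 14.7 RPKM. XX lay above XY in both of these media, again with no overlap.

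**Figure D1:**
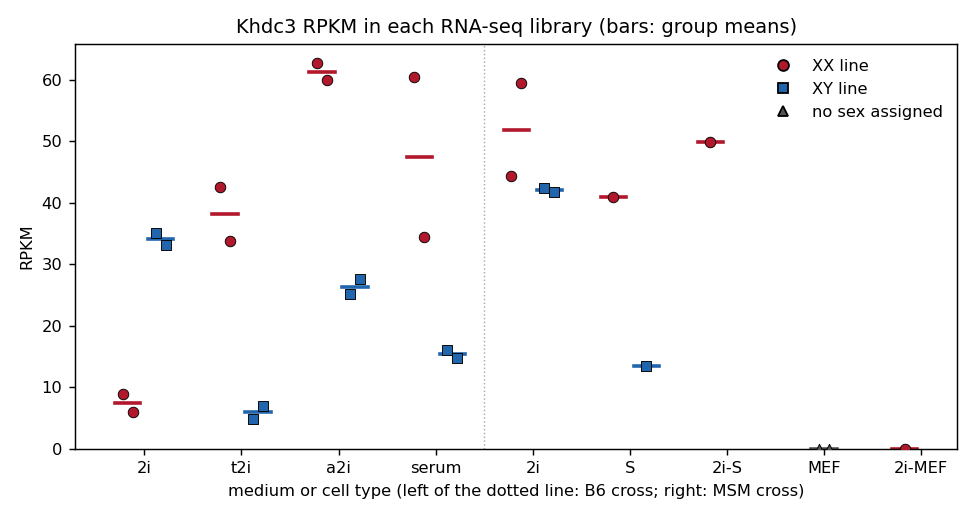
RPKM of Khdc3 (y axis) in each of the 26 RNA-seq libraries by medium or cell type (x axis), with XX lines as circles, XY lines as squares, MEFs without an assigned sex as triangles and group means as bars. The 2 XX lines in B6 2i sit at 6.02 and 8.85 RPKM, under the XY lines at 33.2 and 35.1 RPKM, and the order is the other way round in t2i, a2i and serum.

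Because Khdc3 was chosen for this pattern, its differences are given as a description with no test. On the log2(RPKM + 1) scale, XX minus XY was -2.08 in 2i, 2.51 in t2i, 1.19 in a2i and 1.51 in serum (SE 0.24 each, from the fit of all 16 B6 libraries). As a ratio of means, XY stood 4.59-fold above XX in 2i, and XX stood 6.44-fold above XY in t2i, 2.33-fold in a2i and 3.08-fold in serum. Leaving out any 1 library kept the t2i difference between 2.29 and 2.72, while the serum difference was 1.11 without XX line 17 and 1.91 without XX line 46.
From 2i to t2i, which lowers the dose of the MEK inhibitor, Khdc3 differed by 2.23 in XX lines and by -2.36 in XY lines (SE 0.24 each). The average over the sexes, -0.07 (SE 0.17), hides both. From 2i to a2i it differed by 2.91 in XX lines and by -0.36 in XY lines. The 2i minus serum difference was -2.49 in XX lines and 1.10 in XY lines. These comparisons share the 2i libraries.

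In the MSM cross the 2i XX lines held 44.4 (line 15) and 59.4 RPKM (line 2) of Khdc3 and the XY lines 42.3 and 41.7 RPKM, so both MSM 2i XX lines lay far above the B6 2i XX lines at 6.02 and 8.85 RPKM. In serum the XX line 8 held 40.9 RPKM and the XY line 12 held 13.5 RPKM, and the 2i-S culture of line 15 held 49.8 RPKM.
The 2i minus S difference was 0.95 (SE 0.28) on the log2 scale, and it was 1.57 without line 8 and 0.32 without line 12. XX minus XY was 0.70 (SE 0.26), and 0.28 without either of the S lines. The S value of Khdc3 is thus 1 high XX line and 1 low XY line.

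Ordered by group mean, Khdc3 ran from B6 a2i XX at 61.3 ± 1.94 RPKM (SD, n = 2) down to B6 2i XX at 7.44 ± 2.00 RPKM and B6 t2i XY at 5.93 ± 1.44 RPKM (SD, n = 2 each), a 10.3-fold span within the B6 cross. The values of the 2 lowest groups overlapped. Between them and the top, the groups MSM 2i XX, 2i-S, B6 serum XX and MSM 2i XY overlapped in sequence, as did MSM S XX, B6 t2i XX and B6 2i XY. B6 a2i XY, B6 serum XY and MSM S XY (26.4, 15.4 and 13.5 RPKM) followed without overlap between neighbours.

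The nearest genes around Khdc3 differed in level, and Rab27a shared part of its pattern. Gm20509 overlaps the Khdc3 locus and reached at most 1.95 RPKM, with values down to 2.43e-60 RPKM. How reads of overlapping loci were divided was not stated in the labels or notes used, so the Khdc3 and Gm20509 values are uncertain to that extent. Rsl24d1, a ribosome biogenesis factor 8987 bp away, ranged from 61.3 to 123 RPKM, and Rab27a, a small GTPase of vesicle transport 4206 bp away, from 0.846 to 13.5 RPKM. In B6 2i the XX lines held 0.846 and 1.08 RPKM of Rab27a and the XY lines 3.11 and 2.55 RPKM. The MSM 2i XX lines held 11.2 and 7.87 RPKM. In B6 t2i the sexes were nearly level, at 3.34 and 3.55 RPKM in XX and 3.33 and 3.24 RPKM in XY lines. Whether the 2 genes are linked in regulation was not tested.

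Over the 16 B6 libraries, the 5 genes most like Khdc3 by Pearson r of log2(RPKM + 1) were Pdzd7 (0.84), Plekha2 (0.81), Cyp2s1 (0.81), C730034F03Rik (0.80) and Ggt1 (0.80), out of 11992 genes compared. Libraries of a group share medium and sex, so the r values describe these libraries only. Over the 7 MSM ESC libraries Plekha2 and Ggt1 had r of 0.82 and 0.84, whereas Pdzd7 and Cyp2s1 had r of -0.10 and -0.15 and C730034F03Rik 0.43. Pdzd7 varied little in the B6 libraries, from 0.897 to 1.56 RPKM. With Spearman correlation 3 of the 5 genes were the same, and after subtracting the mean of each medium 0 of 5.
Few genes followed Khdc3 closely: 4 genes had r above 0.8 with it, against 501 with Ooep and 28 with Tle6. The members were themselves loosely alike in the B6 cross, with r of 0.34 between Khdc3 and Ooep, 0.26 between Khdc3 and Tle6 and 0.52 between Ooep and Tle6 over 16 libraries. Over the 7 MSM libraries the r of Khdc3 and Ooep was 0.82.

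Ooep, the other KH-domain member, lies 5.27 Mb from Khdc3 (mm10 chr9:78376108-78378725, ENSMUSG00000032346.7), and it was higher in XX than in XY lines in every B6 medium. The XX lines held 139 and 200 RPKM in 2i, 160 and 243 in t2i, 170 and 125 in a2i, and 102 and 109 in serum. The XY lines held 57.2 and 69.6 RPKM in 2i, 33.7 and 35.1 in t2i, 27.4 and 36.7 in a2i, and 38.2 and 42.7 in serum. The lowest of the 8 XX libraries (102 RPKM) thus lay above the highest of the 8 XY libraries (69.6 RPKM).

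**Figure D2:**
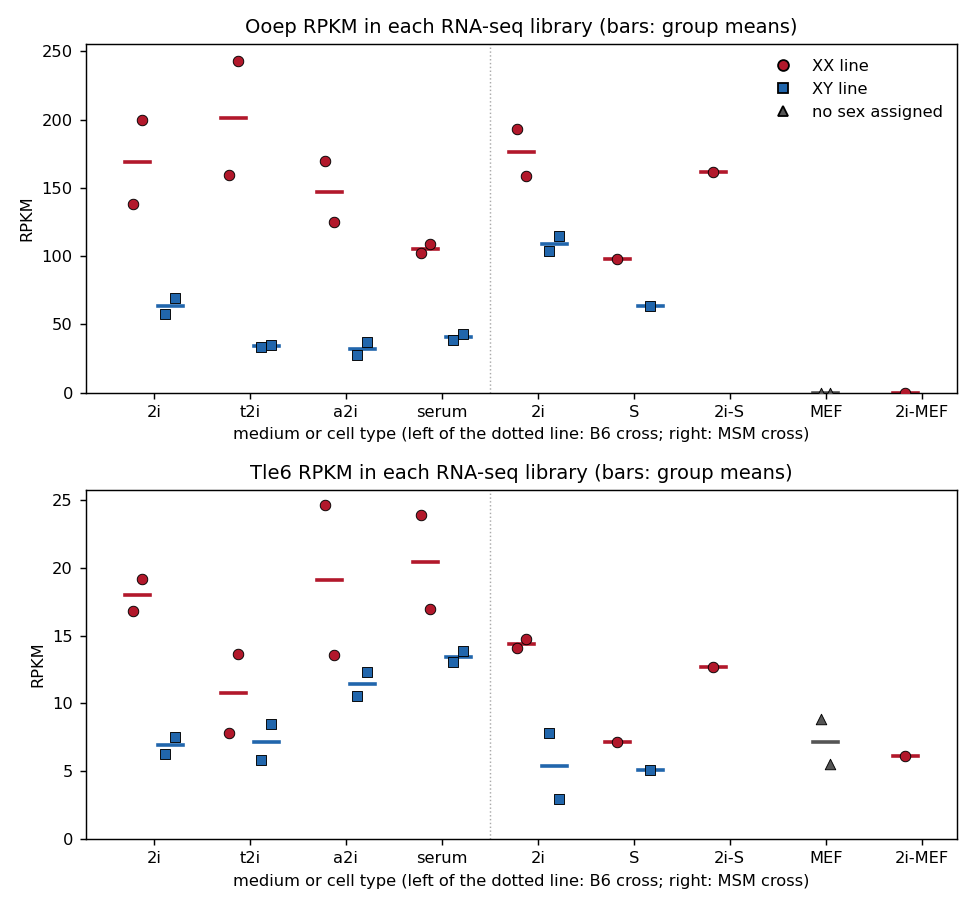
RPKM of Ooep (top) and Tle6 (bottom) on the y axis in each of the 26 RNA-seq libraries by medium or cell type on the x axis, with XX lines as circles, XY lines as squares, MEFs without an assigned sex as triangles and group means as bars. For Ooep all B6 XX libraries lie at 102 RPKM or above and all B6 XY libraries at 69.6 RPKM or below, and for Tle6 the MEF libraries lie between 5.50 and 8.82 RPKM.

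Averaged over the 4 media, XX minus XY of Ooep was 1.85 (SE 0.11, limma adjusted p = 9.34e-08 over all 13150 genes tested). The members were chosen with their pattern known, so the p-values of Ooep and Tle6 describe these libraries and are not independent support. Sex moved many genes, since 21.4% of the genes tested were called higher in XX and 20.0% lower, calls being adjusted p under 0.05. Among the 3 tested members other than Khdc3, Ooep and Tle6 were called higher and Padi6 was not called. The difference was also called within each medium, at 1.38 in 2i, 2.49 in t2i, 2.16 in a2i and 1.36 in serum (SE 0.22 each, limma adjusted p from 1.55e-05 to 0.00315), where 11.9%, 11.0%, 16.8% and 5.51% of genes were called higher in XX. As ratios of means these are 2.67-fold, 5.86-fold, 4.60-fold and 2.61-fold. The t2i minus 2i difference in the sex effect, 1.10 (SE 0.32), was not called (limma adjusted p = 0.12, with 1.26% of genes called in either direction), and neither was that of a2i minus 2i, 0.78 (adjusted p = 0.17, with 4.93% of genes called). Without the 4 t2i libraries the average was 1.64 (limma adjusted p = 5.59e-06), and without the 4 serum libraries 2.01 (adjusted p = 1.89e-06).

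**Figure D3:**
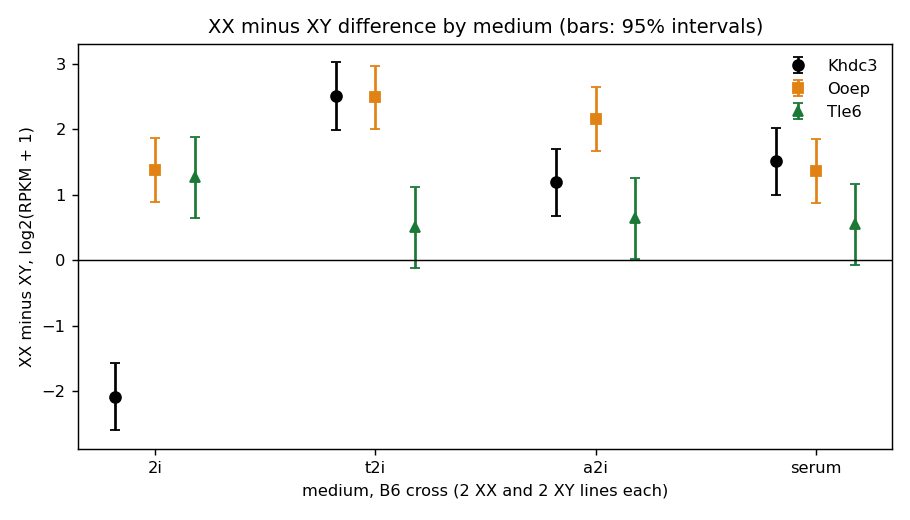
XX minus XY difference on the log2(RPKM + 1) scale (y axis) for Khdc3, Ooep and Tle6 in each medium of the B6 cross (x axis), with 95% intervals from the fit of 16 libraries. Khdc3 is at -2.08 in 2i and above 0 elsewhere, while Ooep lies between 1.36 and 2.49 in all 4 media and Tle6 between 0.50 and 1.27. Khdc3 was chosen for this pattern, so its intervals describe the spread between lines and are not a test against 0.

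Among the MSM lines Ooep held 193 and 159 RPKM in the 2i XX lines, 103 and 115 RPKM in the 2i XY lines, 98.2 RPKM in S XX, 63.7 RPKM in S XY and 161 RPKM in 2i-S. Both 2i XX lines lay above both 2i XY lines, by 1.61-fold in means, and the S pair was in the same order. XX minus XY was 0.66 (SE 0.13, limma adjusted p = 0.040; 2.43% of the 13443 genes were called higher), but 12 of 17 alternatives lost the call, with adjusted p from 0.034 to 0.14 over all of them. With line 15 as a block it was 0.57 (limma adjusted p = 0.076). The sex difference in MSM minus that in B6 lines was -0.72 (SE 0.18) in the fit across crosses, which was not called (limma adjusted p = 0.29, with 0.0600% of genes called).

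Ooep also differed between media. The 2i minus serum difference in the B6 cross was 0.64 (SE 0.16, limma adjusted p = 0.0051, with 16.8% of genes called higher in 2i and 30.7% lower). It was of like size in XX lines (0.65, adjusted p = 0.038, with 36.4% of genes called) and XY lines (0.63, adjusted p = 0.044, with 35.8% called). The average kept its call in all 23 alternatives, at 0.47 to 0.77 (limma adjusted p at most 0.036), and the values within a sex were not recomputed. The MEFs held at most 0.0319 RPKM of Ooep. The alternatives included subtraction of the estimated fibroblast share of the serum libraries, and the call held there. The part of fibroblast RNA in this difference was not tested further. The S lines of the MSM cross also had less Ooep than the 2i lines, by 0.80 (SE 0.14, limma adjusted p = 0.0087, with 8.36% of genes called higher in 2i), and the call rests on both S lines: without line 8 it was 0.76 (adjusted p = 0.078) and without line 12 it was 0.83 (adjusted p = 0.075). The 2i minus serum difference of the crosses differed by 0.15 (SE 0.19, adjusted p = 0.65, with 11.6% of genes called).
From 2i to a2i Ooep fell by 0.58 (SE 0.16, limma adjusted p = 0.029, with 5.85% of genes called lower), a call that 6 of 23 alternatives lost, among them leaving out 2i XX c4, a2i XX a18, 2i XY c6 or a2i XY a1 (adjusted p from 0.10 to 0.11). By sex, a2i minus 2i was -0.97 in XY lines and -0.19 in XX lines, and t2i minus 2i was -0.86 in XY lines and 0.24 in XX lines (SE 0.22 each). The change of the sex effect between these media was not called, as given above. From 2i to t2i the average difference was -0.31 (SE 0.16, limma adjusted p = 0.28), not called, against 3.89% of genes called lower. In 2i-S, set against the 2i group that holds its parent line, it was -0.11 (SE 0.19, adjusted p = 0.84, with 1.22% of genes called), and -0.26 (adjusted p = 0.48) with line 15 as a block.

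Dppa5a, a KH-domain gene of pluripotent cells 7931 bp from Ooep, was far more abundant, at 4051 to 11801 RPKM over the ESC libraries. Ooep as a percentage of Dppa5a was 1.37 to 2.11% in the 8 B6 XX libraries and 0.519 to 0.982% in the 8 XY libraries, which did not overlap. In the B6 cross Dppa5a itself was higher in XX lines by 0.63 (SE 0.13, limma adjusted p = 0.0019). Its ratio of XX to XY means, 1.31 to 2.03 in the 4 media, was below the Ooep ratio in each medium. In the MSM S pair the order was the other way for Dppa5a, at 4051 RPKM in XX and 6152 RPKM in XY.

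**Figure D4:**
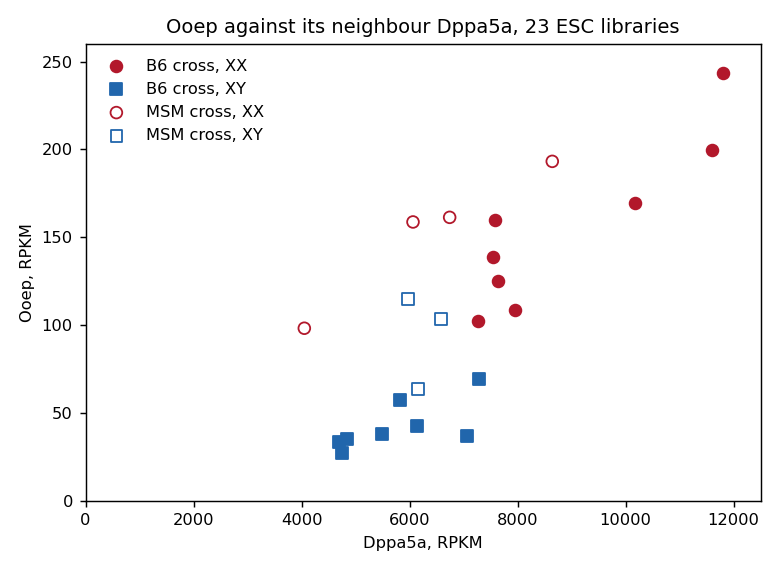
Ooep (y axis, RPKM) against its neighbour Dppa5a (x axis, RPKM) in the 23 ESC libraries, with XX lines as circles and XY lines as squares, filled for the B6 cross and open for the MSM cross. The B6 XX points (Ooep 102 to 243 RPKM) lie above the B6 XY points (27.4 to 69.6 RPKM), and nearly all of them also lie further right, at higher Dppa5a.

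Tle6, the co-repressor member (mm10 chr10:81590903-81601073, ENSMUSG00000034758.12), was higher in XX than XY lines on average over the media. The XX lines held 16.9 and 19.2 RPKM in 2i, 7.85 and 13.6 in t2i, 24.7 and 13.6 in a2i, and 23.9 and 17.0 in serum. The XY lines held 6.27 and 7.52 RPKM in 2i, 5.81 and 8.46 in t2i, 10.5 and 12.3 in a2i, and 13.1 and 13.9 in serum. XX and XY lines overlapped in t2i only. The average XX minus XY was 0.74 (SE 0.14, limma adjusted p = 0.0011). By medium it was called in 2i, at 1.27 (SE 0.29, adjusted p = 0.0062, with 11.9% of genes called higher), and not in t2i (0.50), a2i (0.64) or serum (0.55). The difference between 2i and t2i in this effect was not called (adjusted p = 0.42).

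Tle6 was lower in t2i than in serum, with a t2i minus serum difference of -0.87 (SE 0.20, limma adjusted p = 0.0037, with 28.5% of genes called lower in t2i). The 2i minus serum difference was -0.52 (SE 0.20) and just missed the threshold (adjusted p = 0.051). In the XY lines alone it was -0.88 (adjusted p = 0.030) and in XX lines -0.16 (adjusted p = 0.70), and the difference between the sexes was not called (adjusted p = 0.30, with 8.17% of genes called). Fibroblasts express Tle6, so with the estimated fibroblast share of the serum libraries subtracted the 2i minus serum difference was -0.61 (limma adjusted p = 0.029), and with only the 8 libraries of these media in the fit it was -0.52 (adjusted p = 0.011). It passed in 7 of 23 alternatives, and with quantile normalization it was -0.33 (adjusted p = 0.21).
Tle6 in the MSM lines was 14.1 and 14.7 RPKM in the 2i XX lines, 7.83 and 2.92 RPKM in the 2i XY lines, 7.17 in S XX, 5.07 in S XY and 12.7 in 2i-S. The XX minus XY difference of 1.07 (SE 0.34) was not called (limma adjusted p = 0.13), nor was the 2i minus S difference of 0.43 (SE 0.36, adjusted p = 0.45). The latter rests on single S lines, at -0.05 without line 8 and 0.91 without line 12.

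Padi6 (mm10 chr4:140727354-140742643, ENSMUSG00000040935.12) was above 1 RPKM in 2i XY line c6 (2.82 RPKM) and in serum XX line 46 (1.06 RPKM). The other 21 ESC libraries held 0.0663 to 0.665 RPKM. The other 2i XY line, c2, held 0.227 RPKM, so the 2.82 RPKM was that of 1 library. No B6 comparison called Padi6, and its XX minus XY difference was -0.02 (SE 0.19, limma adjusted p = 0.96), a value on a scale that understates changes of genes near or below 1 RPKM.
Nlrp5 (mm10 chr7:23385888-23441922, ENSMUSG00000015721.18) stayed at or under 0.141 RPKM, and no difference is given for it.

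The wider set of oocyte genes was mostly silent in the ESC libraries. Of 21 oocyte and egg genes, 16 stayed below 1 RPKM in all ESC libraries, among them the oocyte factors Gdf9, Bmp15 and Nobox and the zona pellucida genes Zp1 and Zp2. Dppa3 and Zp3 were at or above 1 RPKM in every library. Of 12 matched other genes of the complex and of the Nlrp oocyte family, 7 stayed below 1 RPKM. Of the 4 KHDC family genes listed beside the members, Khdc1a, Khdc1b and Khdc1c did too, and Dppa5a was expressed. For scale, single ESC libraries held 11251 to 12558 of the 21942 loci at 1 RPKM or more. The share of all loci below 1 RPKM in every ESC library was not counted, so the list counts are a description. Khdc3, Ooep and Tle6 thus stand with the listed oocyte-associated genes that reached 1 RPKM in ESCs, and Tle6 was expressed in the MEFs also.

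**Figure D5:**
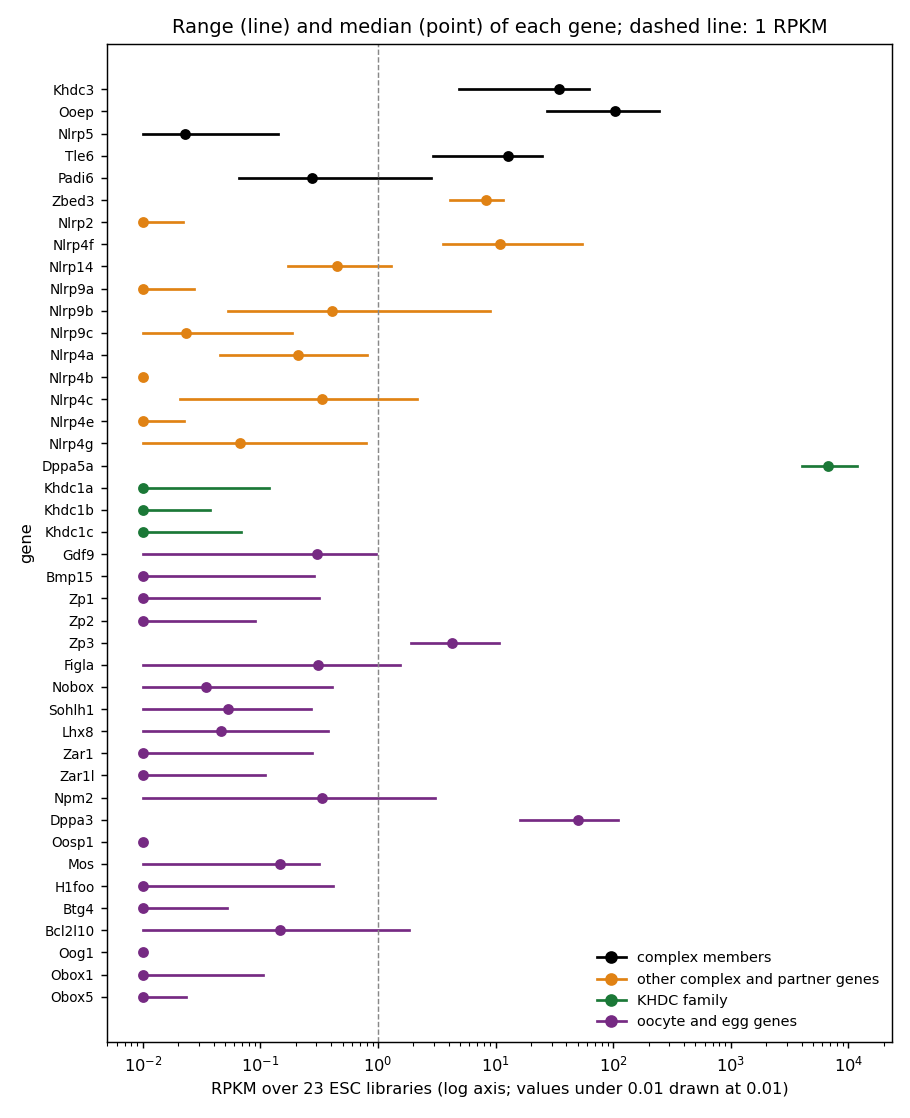
Lowest to highest RPKM (line) and median (point) over the 23 ESC libraries on a log x axis for the members, other complex genes, the KHDC family and oocyte genes on the y axis, with values under 0.01 drawn at 0.01 and a dashed line at 1 RPKM. Ooep, Khdc3 and Tle6 lie right of the line throughout, Nlrp5 lies left of it, and 16 of the 21 oocyte and egg genes never reach it.

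Among the other complex genes, Nlrp4f, an oocyte NLR-family gene, followed sex and medium. It held 23.1 and 27.5 RPKM in B6 2i XX and 8.66 and 11.4 RPKM in 2i XY, and 6.38 ± 0.87 RPKM in serum XX and 5.36 ± 0.72 RPKM in serum XY (SD, n = 2 each). It was higher in XX lines by 0.99 (SE 0.08, limma adjusted p = 1.15e-06) and in 2i over serum by 1.31 (SE 0.12, adjusted p = 1.26e-06). In the MSM cross it was higher in 2i than in S by 2.38 (SE 0.29, limma adjusted p = 0.0025). Nlrp9b went the other way with medium in the B6 cross, at -1.27 for 2i minus serum (limma adjusted p = 0.00024, with 30.7% of genes called lower). B6 XX lines had more of it by 0.49 (adjusted p = 0.015). In MSM S it was 8.96 RPKM in line 8 and 0.628 RPKM in line 12, against at most 0.405 RPKM in the MSM 2i lines. Within the MSM cross it reached 1 RPKM only in S line 8 and in 2i-S (4.76 RPKM). It thus passed the filter on low values through serum cultures alone, and no test of medium is given there. Zbed3, a partner of the complex, was called lower in MSM 2i than S (-1.12, adjusted p = 0.0039) and not called in B6. Of the 13 genes listed, 3 were tested in the B6 fit, and 2 of them, Nlrp4f and Nlrp9b, were those called higher in XX, against 21.4% of all genes. In the MSM fit 3 were tested, and 0 were called for XX minus XY in either direction.

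Of the oocyte and egg genes 3 were tested in the B6 fit. Npm2, an egg histone chaperone, was higher in XX lines by 0.73 (limma adjusted p = 0.0021), Zp3 was higher in 2i than serum by 0.84 (adjusted p = 0.014), and Dppa3, a maternal protein also expressed in ESCs, was lower, at -1.02 (adjusted p = 0.0015).
Genes that act with Khdc3 in the DNA damage response (6 of 6 at or above 1 RPKM in every ESC library) were tested in the same way. For XX minus XY 1 was called lower, Parp1 at -0.15 (limma adjusted p = 0.042, against 20.0% of all genes called lower), and the median of the 6 was -0.06, beside -0.01 over all genes. For 2i minus serum 3 of 6 were called higher, against 16.8% of all genes, with a median of 0.28 beside -0.09 over all genes: the checkpoint kinases Chek1 (0.61, limma adjusted p = 0.00038) and Chek2 (0.45, adjusted p = 0.00023) and the ubiquitin ligase Trim25 (0.51, adjusted p = 7.58e-05). Trim25 was called higher in 2i than S in the MSM cross also (0.61, adjusted p = 0.016).
Paralogs of Tle6 and Padi6 varied among themselves. Of 8 tested, 2 were called higher in XX lines (Padi4 by 0.66 and Aes by 0.18) and 2 lower (Tle2, -0.68, and Padi3, -0.35), against 21.4% and 20.0% of all genes. In 2i minus serum 2 were called higher and 4 lower, against 16.8% and 30.7% of all genes.
Genes of the 2-cell-like state, a rare ESC state that shares transcripts with early embryos, were compared by level only. The sum over 7 such genes was at most 0.0375 RPKM in the B6 2i and 1.89 to 12.5 RPKM in the B6 serum libraries. Within the B6 cross Zscan4d and Zscan4f reached 1 RPKM in serum libraries only. They thus passed the filter on low values through serum alone, and no test is given for them.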

How the data were processed

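Gene-level RPKM values of 26 RNA-seq libraries were used, as deposited by the authors in 1 table of 21942 loci; the 62 bisulfite samples were not analysed here. Per the labels' protocols the libraries were stranded mRNA libraries, and mm10, Cufflinks 2.2.1, Bowtie2 2.2.5, TopHat2 2.1.0 and cutadapt 1.9.1 are named in the submitters' processing notes, with no role or order. The tool behind the RPKM was not given in the sources used here. Read counts were not used here, so depth is unknown and no interval that needs it is given; RPKM summed to 624274 to 934309 per library, and lines of a group correlated at 0.987 to 0.996. Nothing beyond the line names says that lines came from separate embryos, so p-values measure the spread between these lines.

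Differences were fitted with limma 3.58.1 in R 4.3.3 on log2(RPKM + 1), a scale that understates changes of low genes, over genes at 1 RPKM or more in at least 2 libraries (eBayes with a trend, Benjamini-Hochberg over all genes, called under 0.05). The B6 fit held 8 group means (13150 genes, 8 residual degrees of freedom), the MSM fit 1 mean per culture and an XX term (13443 genes, 4), and the fit across crosses 14 libraries (13330 genes, 8). Line 15 supplied the 2i-S, 2i-MEF and 1 of the 2i libraries per the labels, and a fit with it as a block was an alternative. For 2i-S and 2i-MEF, with 1 library each, the spread was taken to be that of the remaining groups. The MEFs got no sex, since their titles and descriptions conflict. The fits were tested on simulated data. Named genes were the members, up to 4 called genes of each list with the largest difference, genes within 200 kb of Khdc3 and the 5 genes most like it; from those within 200 kb the text takes the nearest on either side and the one that overlaps. The members and the 10 gene lists (93 genes, 1 unmatched) were chosen with earlier results of these data known. Their p-values therefore describe these libraries and are not independent support. Figures and tables were made with matplotlib 3.10.9, numpy 2.4.6 and pandas 2.3.3 in Python 3.11.15.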

Additional observations from a re-analysis of the deposited data

Results flagged for a closer look

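In 4 of 20 groups of 4 libraries, taken as the libraries of a medium and cross for Khdc3, Ooep, Tle6 and Padi6, 1 library stood far from the other 3. Chance gives such a gap in about 1 in 20 groups of like libraries. These groups pool XX and XY lines, and Khdc3 was chosen for its pattern, so the count cannot be set against that rate. Khdc3 was 59.4 RPKM in MSM 2i XX line 2, against 41.7 to 44.4 RPKM in the others. Padi6 was 2.82 RPKM in B6 2i XY line c6, against at most 0.328 RPKM in the others. It was 0.665 RPKM in B6 a2i XX line a18 and 0.179 RPKM in t2i XY line t2, both under 1 RPKM.

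Khdc3 moved in opposite directions by sex in different groups, with every library on its side, and the differences were not tested. On the log2 scale XX minus XY in B6 t2i exceeded that in B6 2i by 4.58, in a2i by 3.27 and in serum by 3.59. In 2i, XX minus XY was 2.36 higher in the MSM cross (0.28) than in the B6 cross (-2.08).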

How the results depend on the processing

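Of 676 recomputed member differences 630 kept their direction and their side of the threshold or stayed within the spread of Khdc3, and 11, of 6 differences, turned in sign, none of them called either way. Those that turned when 1 library was left out ranged from -0.045 to 0.91 for Tle6 2i minus S in MSM, from -0.048 to 0.17 for Ooep and -0.38 to 0.028 for Tle6 a2i minus serum in B6, from -0.20 to 0.0014 for Ooep and -0.17 to 0.12 for Tle6 2i-S minus 2i, and from -0.27 to 0.48 for the Tle6 sex difference in MSM minus B6. Ooep a2i minus serum was also -0.12 with the fibroblast share subtracted. The Ooep XX minus XY difference in the B6 cross stayed called in all 24 alternatives (1.64 to 2.01), as did that of Tle6 (0.64 to 0.84). The alternatives without serum or t2i and the blocks were chosen after seeing the data. Ooep 2i minus S in the MSM cross ranged from 0.73 to 0.85 when 1 library was left out, and lost its call without either S line. Tle6 2i minus serum in the B6 cross ranged from -0.63 to -0.40 when 1 library was left out, and it passed the threshold in 7 of 23 alternatives, among them the fibroblast share subtracted (-0.61) and only the 8 libraries of these media (-0.52), and was smallest with quantile normalization (-0.33, adjusted p = 0.21); the cause was not tested. Leaving out 1 library lowered the genes called from 1062 to 569 for t2i minus 2i, from 2290 to 662 for MSM 2i minus S, from 462 to 110 for MSM XX minus XY and from 1544 to 699 for the 2i against serum effect between the crosses. With no filter the MSM XX minus XY count was 165, and with the fibroblast share subtracted the count between the crosses was 760. With line 15 as a replicate block the MSM XX minus XY count was 226, Ooep XX minus XY lost its call (0.57), and Ooep (0.73) and Tle6 (0.38) 2i minus S kept their side of the threshold. The B6 XY lines in 2i and t2i share the numbers 2 and 6 under different letters, and the deviations of same-numbered lines correlated at 0.0023 over 13150 genes. With these numbers as a replicate block, t2i minus 2i was -0.31 for Ooep and -0.36 for Tle6, neither called, with 891 genes called. Depth is unknown, so the counting error of Padi6 and Nlrp5 values below 1 RPKM cannot be given, and it may be large.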
